A study of Homo sapiens with 9 samples.

Results

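This comparison set HAL-01 cells that received sgRNA_96, a single guide RNA of the class the labels call MEF2C-enhancer KO, against HAL-01 cells that received the scrambled guide SCR1. HAL-01 is a B cell acute lymphoblastic leukemia line with the t(17;19) translocation, which fuses the TCF3 and HLF genes into the transcription factor TCF3::HLF. All groups carried the fusion and stably expressed Cas9 together with GFP, and all were collected on day 13 after the guides were delivered by lentivirus. Members were chosen by sample title, and they were 6 of the 9 libraries of the series: 3 with sgRNA_96 and 3 with SCR1, numbered 1, 3 and 4 in both groups. A second enhancer guide, sgRNA_97, was used only where the guides were set against each other. The model was limited to 1 cell line and to 1 guide in these 6 libraries. The share of edited cells, and whether unedited cells were removed before RNA was taken, were not analysed here, so a population value averages over whatever cells were present. In such bulk RNA, fewer cells with a transcript and less transcript per cell cannot be told apart.

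MEF2C is a transcription factor of the MADS box family. It binds A/T-rich sites as a dimer, recruits class IIa histone deacetylases or coactivators depending on signaling, and is active in lymphoid progenitors and B cells as well as in muscle and neurons. HLF belongs to the PAR bZIP family, whose members recognize a short palindrome, and the fusion keeps the DNA-binding domain of HLF. The question addressed by the comparison was what happens to the transcriptome when the HLF motif of the MEF2C enhancer is a CRISPR target.

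The study designed 2 guides against this motif, shown here because they define the perturbation. Which of them is sgRNA_96 was not stated in the labels. Capitals mark the PAR bZIP motif within each 20-base protospacer, written 5′ to 3′.
E.1: tagcaTTACATAAtacatgt
E.2: ttagcaTTACATAAtacatg
Each matched hg38 at a single place, on the minus strand of chromosome 5. E.1 matched chr5:88825103-88825122 with the adjacent bases GGG, and E.2 matched chr5:88825104-88825123, 1 base away, with TGG. The scrambled guide of the study, gtagcgaacgtgtccggcgt, had 0 exact matches. The 100 bases around the motif, chr5:88825064-88825163 on the plus strand with the motif in capitals, read as follows.
Site: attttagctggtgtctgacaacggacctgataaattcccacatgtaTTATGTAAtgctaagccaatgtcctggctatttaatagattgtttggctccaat
The motif (chr5:88825110-88825117) lay inside the MEF2C gene (ENSG00000081189.17, minus strand, chr5:88717117-88904257) and in no annotated exon, so it was intronic. It was 79.1 kb downstream of the outermost annotated MEF2C start and 766 bases upstream of an internal RefSeq start at position 88824344.

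The guide 96 libraries held 15924380 to 20565658 counts and the control libraries 17439072 to 29777361, SCR1 replicate 1 being the deepest. Mitochondrial genes took 5.97% to 6.94% of the counts across the 6 libraries, and no library lay among the other group on the first principal component. It held 30.71% of the variance and told the groups apart, with scores of -23.93 to -17.59 for sgRNA_96 and 17.23 to 23.24 for SCR1. The second carried 21.49% and spread the guide 96 libraries, from 29.42 in replicate 1 to -27.14 in replicate 4. The labelled cell type was checked against markers: 12 of 12 B progenitor markers were expressed, with a summed 5557 to 5649 TPM in sgRNA_96 and 5305 to 5505 TPM in SCR1 (TPM is an abundance scaled for transcript length and library size). T cell markers summed to at most 0.204 TPM and erythroid markers to at most 0.415 TPM in any library. NK cell markers summed to 16.1 to 19.0 TPM in sgRNA_96 and 20.3 to 22.4 TPM in SCR1. Megakaryocyte markers summed to 5.72 to 6.48 TPM and 5.87 to 7.24 TPM. In each of these 2 lists 1 marker could be tested, and it was not called. Of 13 myeloid markers 4 could be tested, and the list summed to 22.5 to 29.8 TPM in sgRNA_96 and 32.8 to 38.3 TPM in SCR1. MPO and CD33 in that list were higher in sgRNA_96 (by 0.97 and 0.64 on the log2 scale), S100A8 was lower, the first 2 calls ended with a transcript length offset (adjusted p = 0.13 and 0.18), and the part of these cells or transcripts in other results was not tested.

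MEF2C itself did not pass the test. It stood at 496, 498 and 508 CPM (counts scaled to the size of each library) in the 3 sgRNA_96 libraries and at 558, 561 and 536 CPM in the 3 SCR1 libraries. The groups did not overlap, and the means were 501 ± 6.64 and 552 ± 13.7 CPM (SD, n = 3 each). The fitted difference was -0.14 on the log2 scale (SE 0.049), a change of -9.25%, and it missed the threshold of 0.05 with an adjusted p of 0.066 in edgeR's quasi-likelihood test. Permuting the 6 libraries exactly (two-sided) gave p = 0.1, and 20 arrangements of 3 against 3 allow none smaller. DESeq2 placed the same difference past the threshold with an adjusted p of 0.026. With sgRNA_97 the difference from SCR1 was -0.09 on the log2 scale, and the guides differed from each other by 0.05 with an adjusted p of 1. The size of the MEF2C difference depended on the measure. In TPM, MEF2C stood at 201, 186 and 202 in sgRNA_96 and at 227, 243 and 215 in SCR1. Those means were 196 ± 9.12 and 228 ± 13.9 TPM (SD, n = 3 each), a larger relative fall than in CPM, again with no overlap.

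Transcripts of MEF2C were grouped by where they start. The 37 annotated transcripts that start upstream of the targeted motif summed to 163, 149 and 169 TPM in sgRNA_96 and to 173, 176 and 163 TPM in SCR1, and those ranges overlapped. The 7 transcripts that start downstream of the motif within 2 kb of it summed to 14.1, 8.66 and 11.9 TPM in sgRNA_96 and to 16.8, 30.2 and 22.4 TPM in SCR1, with no overlap. Another 13 that start farther downstream summed to 24.0, 27.8 and 20.4 TPM against 36.8, 36.4 and 29.4 TPM, again with no overlap. In the last class was ENST00000627717.2, at 21.2, 21.7 and 18.2 TPM in sgRNA_96 and 30.2, 33.8 and 28.0 TPM in SCR1. In the class within 2 kb, ENST00000506716.5 was at 9.061, 4.4 and 3.48 TPM against 8.19, 5.911 and 6.455 TPM. ENST00000636541.1 was at 0, 1.244 and 7.557 TPM against 6.578, 18.57 and 11.28 TPM. The groups overlapped for both. Among all tested genes, 29.9% had groups that did not overlap. No test was run on these transcript values, which rest on how Salmon divides reads among transcripts that share exons.

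Among the other MEF2 genes, MEF2A rose and MEF2D and MEF2B did not pass the test. MEF2A was at 176, 183 and 187 CPM in sgRNA_96 and at 156, 171 and 149 CPM in SCR1, a log2 difference of 0.20 (SE 0.059, adjusted p = 0.030). The call held in 11 of 19 alternative analyses. MEF2D was at 183, 169 and 160 CPM against 168, 162 and 169 CPM, and the groups overlapped. MEF2B was barely expressed, at 1.3 to 4.92 CPM in sgRNA_96 and 2.57 to 3.97 CPM in SCR1.

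Of the 11 MEF2 factors, class IIa deacetylases and salt-inducible kinases tested, 2 rose and 1 fell (27.3%, against 12.5% of all tested genes), with a median log2 difference of -0.03. Leaving out any single library left 0 or 1 rise, with 0 without sgRNA_96 replicate 3 or SCR1 replicate 4, and entering transcript length in the fit as an offset left 1 rise and 0 falls. HDAC9, a class IIa deacetylase that binds MEF2 proteins, fell from 36.3, 38.4 and 31.6 CPM in SCR1 to 23.8, 27.2 and 28.5 CPM in sgRNA_96 (log2 difference -0.41, SE 0.093, adjusted p = 0.0063). HDAC7, the member of that class typical of lymphoid cells, rose by 0.21 (adjusted p = 0.040), a call held in 10 of 19 alternatives. With the length offset the HDAC9 call ended (adjusted p = 0.14), and so did that of MEF2A (adjusted p = 0.15). The genes of the fusion did not pass the test. HLF, whose 3′ part is in the fusion, was at 305, 292 and 324 CPM in sgRNA_96 and 329, 326 and 320 CPM in SCR1, with an adjusted p of 0.33. TCF3 was at 421, 359 and 334 CPM against 427, 416 and 453 CPM, with a log2 difference of -0.22 and an adjusted p of 0.061. MYC was at 616, 669 and 586 CPM against 553, 577 and 633 CPM, an overlap of the groups. BCL2, the apoptosis inhibitor, differed by -0.11 with an adjusted p of 0.18.

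**Figure D1:**
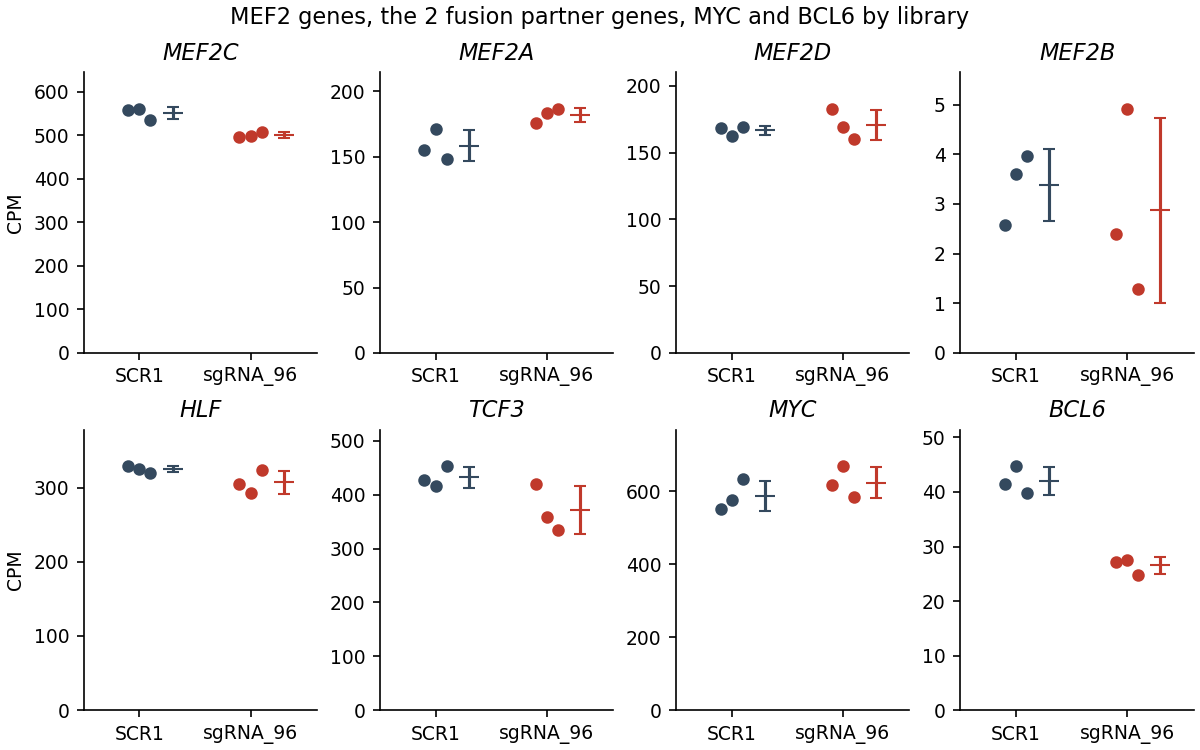
CPM of 8 genes in each SCR1 (dark) and sgRNA_96 (red) library, with the mean and SD of each group beside the points and the vertical axis from 0. MEF2C sits at 496 to 508 CPM in sgRNA_96 and 536 to 561 CPM in SCR1, and BCL6 at 24.8 to 27.5 CPM against 39.7 to 44.7 CPM.

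Across the transcriptome, 1766 of 14159 tested genes (12.5%) passed an adjusted p of 0.05, and nearly as many rose as fell: 875 were higher (6.18%) and 891 lower (6.29%) with sgRNA_96. Most differences were small. The median size among called genes was 0.32 on the log2 scale, a 1.249-fold change, and the median over all tested genes was 0.142. Of the called genes, 455 (25.8%) changed by less than 0.25, 920 (52.1%) by 0.25 to 0.5, 277 (15.7%) by 0.5 to 1, and 114 (6.46%) by at least 1, that is 2-fold. Small and large changes differed in direction. Below 0.25 there were 169 rises and 286 falls, whereas at 2-fold or more there were 84 rises and 30 falls. A test for a change of more than 1.2-fold left 208 genes (1.47%), of which 162 were higher and 46 lower, and a test for more than 1.5-fold left 31, with 24 higher and 7 lower. The groups did not overlap for 4230 of the tested genes (29.9%) and for 1723 of the called ones. The count of called genes rested partly on single libraries: it was 745 without sgRNA_96 replicate 3, 946 without SCR1 replicate 1 and 1045 without SCR1 replicate 4. It was 576, with 367 higher and 209 lower, when transcript length entered the fit as an offset. In that fit, 1758 of the 1766 called genes kept their direction and 542 stayed called in it.

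The share of called genes differed by level and by gene type. With the tested genes divided by level into 3 equal parts, 239 were called in the lowest (5.06%), 539 in the middle (11.4%) and 988 in the highest (20.9%), while the median size of a called change went from 0.831 to 0.376 and 0.261. Large changes were mostly at low expression: the 114 genes with at least 2-fold had a median level of 1.66 CPM, 33 of them were under 1 CPM, and 17 were at 10 CPM or more. They included 45 rises and 23 falls of protein-coding genes, and 34 rises and 4 falls of long noncoding RNAs. Of the 114 genes, 49 overlap another gene model on the same strand. Long noncoding RNAs were called for 143 of 1885 tested (7.59%), and 133 of these were higher. Protein-coding genes were called for 1603 of 11583 (13.8%), with 731 higher and 872 lower. In abundance, the called rises summed to 45114 to 47523 TPM in sgRNA_96 and 36395 to 37498 TPM in SCR1. The called falls summed to 103970 to 110620 TPM in sgRNA_96 and 126400 to 130820 TPM in SCR1. These sums describe genes picked for their difference.

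**Figure D2:**
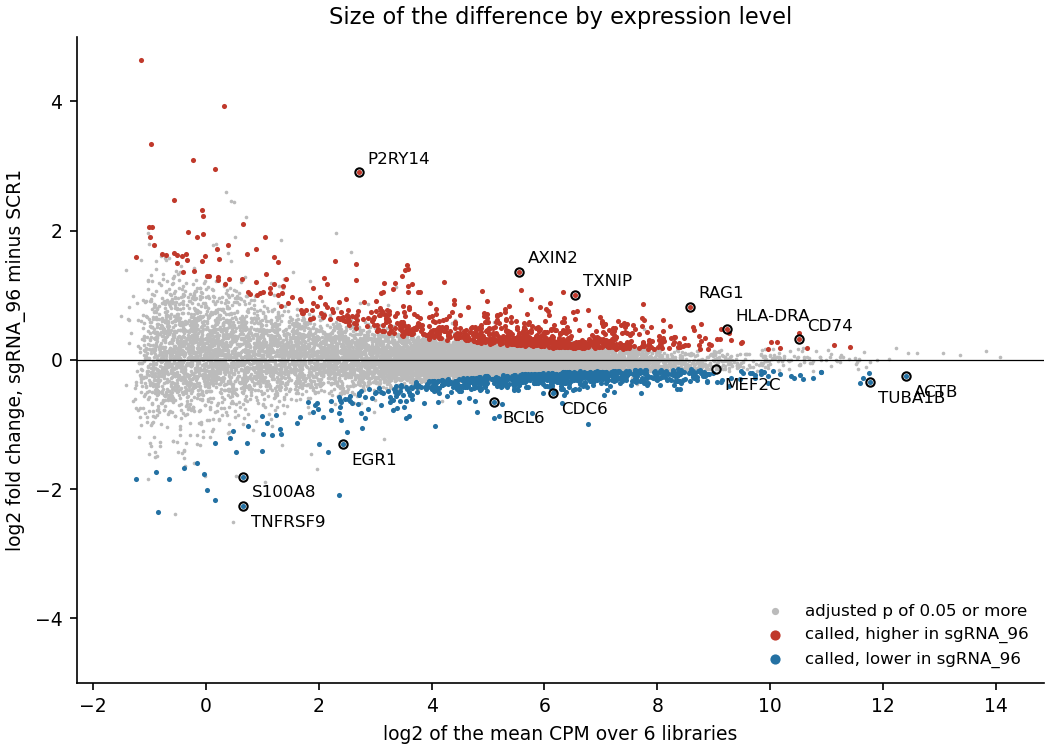
Each point is a gene, with the log2 of its mean CPM over 6 libraries on the horizontal axis and the log2 fold change of sgRNA_96 over SCR1 on the vertical axis. Called genes are red (875 higher) or blue (891 lower), 14 genes are labelled, and 1 gene (GVINP1, at 0 in every sgRNA_96 library) lies beyond the plotted range of 5.

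Among the 10 largest rises of protein-coding genes was P2RY14, a purinergic receptor for UDP-glucose known from hematopoietic stem and progenitor cells. It was at 11.86, 11.97 and 10.92 CPM in sgRNA_96 and at 1.63, 1.77 and 1.23 CPM in SCR1. The log2 difference was 2.91 (SE 0.18, adjusted p = 1.4e-08), a 7.5-fold rise, called in all 19 alternatives. AXIN2, a feedback inhibitor of WNT signaling, rose from 29.7, 25.6 and 23.1 CPM to 81.1, 58.8 and 63.6 CPM (log2 difference 1.37, SE 0.13, adjusted p = 0.00016). It had the highest CPM of the 10 largest rises. DEPP1, a FOXO-responsive gene of autophagy regulation, rose from 2.95, 3.26 and 1.28 CPM to 7.002, 7.98 and 6.65 CPM (log2 difference 1.53, SE 0.26, adjusted p = 0.0011).

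The ion channel family member ANO2 rose by 1.40 and MACROD2, an ADP-ribose hydrolase, by 1.39, both from 5.53 to 7.28 CPM in SCR1. TIFAB, an inhibitor in TRAF6 signaling, rose by 1.90, GIMAP8, a GTPase of immune cells, by 1.72, GPR162, an orphan receptor, by 1.56 and XKR4, of the XK family, by 1.52, all from levels under 1.4 CPM in SCR1. ENSG00000273345 had the largest fitted difference of these 10 genes, 3.93, but its counts were 2.21, 3.94 and 0.865 CPM against 0.0677, 0.114 and 0.284 CPM and its model overlaps 3 others on the same strand, so its reads could belong to a neighbour.

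The 10 largest falls were all under 8 CPM in SCR1. TNFRSF9, the T cell costimulator 4-1BB, stood at 0.757, 0.438 and 0.432 CPM in sgRNA_96 and at 2.51, 4.01 and 1.32 CPM in SCR1 (log2 difference -2.27, SE 0.42, adjusted p = 0.0016). BMP8A, a ligand of the BMP family, stood at 0.315, 0.389 and 0.486 CPM against 1.76, 2.12 and 1.61 CPM. S100A8, a calcium-binding protein of myeloid cells, fell from 3.25, 2.06 and 2.08 CPM to 0.505, 0.73 and 0.865 CPM (log2 difference -1.81, SE 0.34, adjusted p = 0.0017). None of these 3 exceeded 1 CPM in any sgRNA_96 library.

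EGR1, an immediate early transcription factor, fell from 7.86, 7.84 and 7.37 CPM to 3.03, 2.68 and 3.62 CPM (log2 difference -1.31, SE 0.18, adjusted p = 7.8e-05). TSC22D3, the glucocorticoid-induced leucine zipper, fell from 6.03, 6.29 and 4.87 CPM to 2.21, 2.14 and 2.59 CPM (log2 difference -1.30, SE 0.20, adjusted p = 0.00032). HES6, of the HES family, fell by 1.43, KCNH7, a potassium channel, by 1.42, MYT1L, a zinc finger factor of neurons, by 1.29 and SPRY4, a feedback inhibitor of ERK signaling, by 1.17 on the log2 scale. ENSG00000286001 differed by -2.02, and its model overlaps 3 others on the same strand. Of the genes with the largest changes, the calls of TNFRSF9, SPRY4, GIMAP8 and MACROD2 ended with the transcript length offset (adjusted p = 0.28, 0.13, 0.063 and 0.11).

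**Figure D3:**
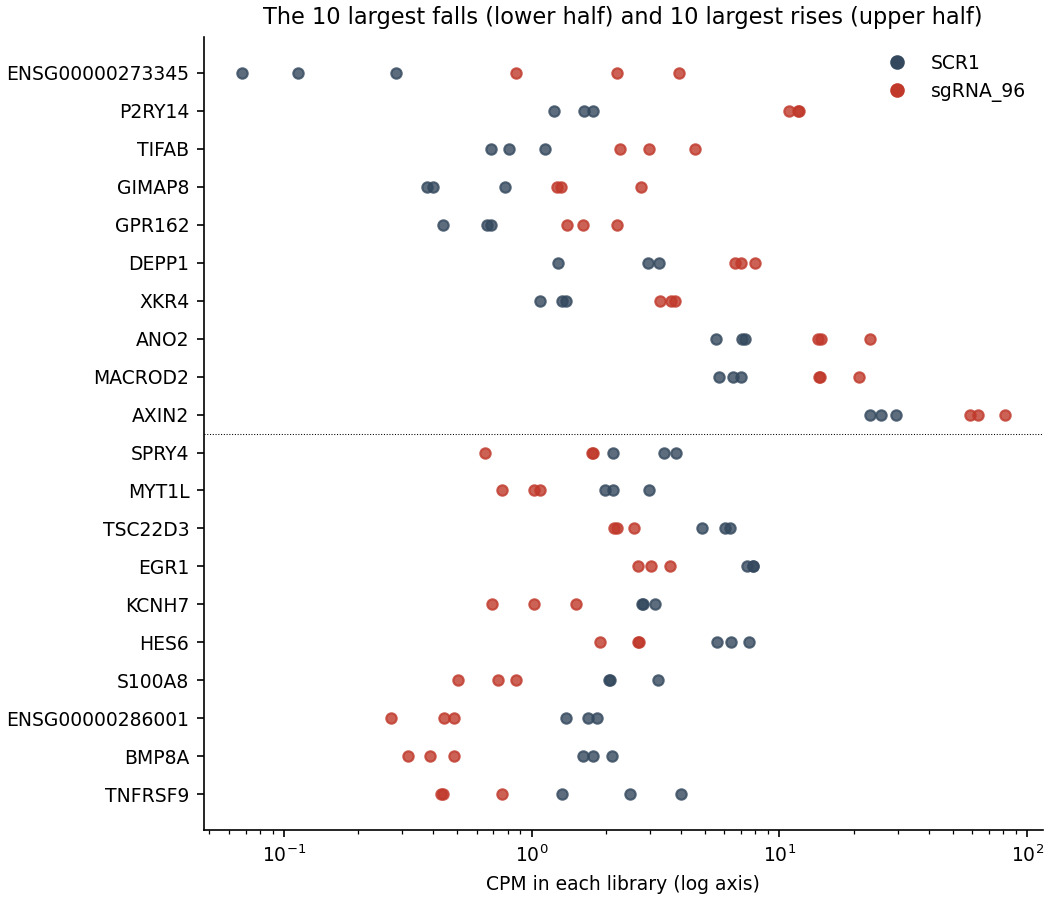
CPM in each library, on a log axis, for the 10 largest falls and the 10 largest rises among called protein-coding genes at a mean of 1 CPM or more. Within each gene the 3 sgRNA_96 points (red) and the 3 SCR1 points (dark) do not overlap, which the rule required, and AXIN2 reaches 81.1 CPM.

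Ranked by TPM, other genes led. The largest TPM rises were in TPT1, a translationally controlled protein (4663 ± 107 to 5437 ± 391 TPM, mean ± SD, n = 3), CD74, the invariant chain of class II molecules (1503 ± 65.5 to 1886 ± 153 TPM), CD52, a lymphocyte surface glycopeptide (542 ± 20.5 to 830 ± 47.4 TPM), DNTT, the template-independent DNA polymerase of V(D)J joining (1507 ± 34.5 to 1778 ± 125 TPM) and HLA-DRA (606 ± 39.2 to 850 ± 61.2 TPM). The largest TPM falls were in cytoskeleton and housekeeping genes: TUBA1B, ACTB, ACTG1, PPIA and GAPDH. TUBA1B, an alpha-tubulin, was at 3195, 3057 and 2908 CPM in sgRNA_96 and 4070, 3788 and 3826 CPM in SCR1 (log2 difference -0.35, SE 0.055, adjusted p = 0.00033). GAPDH fell by 0.20 (adjusted p = 0.026) and ACTB by 0.25 (adjusted p = 0.014), and both calls ended when transcript length entered the fit, with adjusted p of 0.12 and 0.068, as did those of PPIA and TPT1 (adjusted p = 0.063 and 0.059).

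Gene lists were described by counts (genes named beyond the fixed naming rule, such as CIITA, RAG2, MME, IFI30 and the RFX subunits, were chosen after their values were seen), against 6.18% higher and 6.29% lower among all tested genes and a median log2 difference of -0.001. The list with the highest share of rises was MHC class II presentation, the set that loads peptides for display to CD4 T cells: 13 of 19 members rose and 1 fell, with a median of 0.37. The classical class II chains rose together. HLA-DRA was at 672, 767 and 651 CPM in sgRNA_96 and 486, 530 and 490 CPM in SCR1 (log2 difference 0.47, SE 0.061, adjusted p = 6e-05). HLA-DQA1 rose by 0.58, HLA-DPB1 by 0.56, HLA-DQB1 by 0.51, HLA-DPA1 by 0.40 and HLA-DRB1 by 0.28. HLA-DRB1 and HLA-DRB5 are near-identical, so the division of reads between them is uncertain.

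HLA-DMB, a subunit of the peptide exchange factor, had the largest difference of the list, from 27.8, 29.3 and 29.96 CPM to 42.6, 55.1 and 51.5 CPM (log2 difference 0.78, SE 0.090, adjusted p = 1.2e-05). CIITA, the coactivator that turns on class II genes, was named here after its value was seen. It rose from 188, 204 and 195 CPM to 274, 293 and 263 CPM (log2 difference 0.50, SE 0.055, adjusted p = 7.3e-06). The subunits of the RFX complex, which binds the class II promoters, did not pass the test: RFX5 differed by 0.10, RFXAP by -0.12 and RFXANK by -0.06. IFI30, a thiol reductase of antigen processing, was the one fall, by 0.31 (adjusted p = 0.042). Leaving out any single library left 11 to 13 rises, and with the transcript length offset there were 10.

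Class I presentation showed 2 rises and 1 fall in 19 (15.8%, against 12.5% of all tested genes). Its rises numbered 5 with DESeq2, with library totals only, without a filter, with a minimum count of 30, with the replicate block and without sgRNA_96 replicate 4, and 6 with the length trend offset. One of the rises was NLRC5, the class I counterpart of CIITA, from 109, 110 and 108 CPM to 158, 167 and 156 CPM (log2 difference 0.56, SE 0.054, adjusted p = 1.7e-06). HLA-F rose by 0.51, and PSMB10, an immunoproteasome subunit, fell by 0.27. Of 48 interferon-response genes, 8 rose and 0 fell (16.7% called, against 12.5% of all tested genes), with a median of 0.14. GBP4, a guanylate-binding GTPase, rose from 64.9, 64.5 and 60.4 CPM to 96.8, 95.2 and 106 CPM, and GBP2, SAMD9L and IFIT2 rose by 0.52, 0.42 and 0.46. Without sgRNA_96 replicate 3, and without SCR1 replicate 1, the list had 5 rises. With the transcript length offset it had 2, and the GBP4, GBP2 and IFIT2 calls ended (adjusted p = 0.14, 0.13 and 0.070).

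DNA replication was the list with the highest share of falls. Of 46 licensing and fork genes 36 fell and 0 rose (78.3%), with a median of -0.30, and no single member changed by 2-fold. The licensing factor CDC6 was at 58.4, 58.8 and 58.0 CPM in sgRNA_96 and at 85.3, 83.3 and 81.1 CPM in SCR1 (log2 difference -0.51, SE 0.060, adjusted p = 1.4e-05). GINS2, of the replicative helicase, was at 65.8, 70.1 and 71.2 CPM against 99.04, 97.2 and 97.9 CPM (log2 difference -0.50, SE 0.059, adjusted p = 1.3e-05). CDT1, the partner of CDC6 in loading the helicase, fell by 0.47 and ORC1, of the origin recognition complex, by 0.42. Leaving out single libraries gave 23 to 36 falls, the fewest without sgRNA_96 replicate 3 and 24 without SCR1 replicate 4, and the transcript length offset gave 19.

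Other lists of proliferating cells also held mostly falls. In G1 control 9 of 20 genes fell and 1 rose: CCND3, the D-type cyclin of B cell precursors, fell from 707, 706 and 700 CPM to 544, 575 and 481 CPM (log2 difference -0.40, SE 0.059, adjusted p = 0.00017), CDK2 by 0.36, CCNE2 by 0.32 and E2F2 by 0.30. Nucleotide and one-carbon metabolism had 19 of 34 lower and 0 higher, with a median of -0.21. RRM2, the regulated subunit of ribonucleotide reductase, was at 258, 272 and 288 CPM against 350, 383 and 344 CPM, and TK1, thymidine kinase, at 124, 118 and 105 CPM against 170, 156 and 150 CPM. With the transcript length offset the G1 list had 4 falls and the nucleotide list 10. In mitosis and kinetochore genes 22 of 50 were lower and 0 higher, with a median of -0.19. CENPM, a centromere protein, fell by 0.46 and the kinesins KIFC1 and KIF2C by 0.32 and 0.30. The mitotic count was less steady than the others: it was 10 without sgRNA_96 replicate 3, 13 without SCR1 replicate 4 and 3 with the transcript length offset.

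Several metabolic lists held only falls or mostly falls. Of 24 cholesterol synthesis genes, 16 fell and 0 rose, with a median of -0.27. ACAT2, acetoacetyl-CoA thiolase of the cytosol, was at 110, 109 and 107 CPM in sgRNA_96 and at 160, 170 and 147 CPM in SCR1 (log2 difference -0.55, SE 0.059, adjusted p = 5.6e-06). HMGCS1, which makes HMG-CoA, was at 275, 267 and 314 CPM against 377, 416 and 382 CPM, and MVD, of the middle of the pathway, fell by 0.45. Without sgRNA_96 replicate 3 the count was 9, and with the transcript length offset it was 7, which no longer held MVD (adjusted p = 0.15).

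Of 39 proteasome and CCT chaperonin genes 26 fell and 0 rose, with a median of -0.20 and PSMC2, PSMB3, PSMD3 and PSMB7 as the largest, by 0.29 to 0.35. That count fell to 5 without sgRNA_96 replicate 3, to 9 without SCR1 replicate 1, to 13 without SCR1 replicate 4 and to 5 with the transcript length offset. Of 74 nuclear-encoded oxidative phosphorylation genes 22 fell and 0 rose (median -0.16), led by CYC1, COX8A, UQCRC1 and ATP5MC1, by 0.31 to 0.35. Their count was 5 without sgRNA_96 replicate 3, 8 without either SCR1 replicate 1 or SCR1 replicate 4 and 3 with that offset. In glycolysis and the hypoxia response 11 of 33 fell and 4 rose: the falls included LDHA (by 0.32), ALDOA (by 0.34) and ENO2 (by 0.28), and the rises BNIP3L (by 0.30). Those falls numbered 3 without sgRNA_96 replicate 3, 5 without SCR1 replicate 1, 6 without sgRNA_96 replicate 4 or SCR1 replicate 4, and 2 with the offset.

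Among lists of protein synthesis, cytosolic ribosomal proteins held 0 calls, and the ribosome biogenesis and tRNA synthetase lists held only falls. Of 78 cytosolic ribosomal protein genes 0 passed the edgeR test and 0 passed DESeq2, 4 were at an unadjusted p under 0.05, the median was 0.01, and leaving out single libraries gave at most 2 rises and 3 falls. Of 60 ribosome biogenesis genes 8 fell (13.3%, against 6.29% of all tested genes) and 0 rose. The median was -0.11, and 55 of the 60 differences were below 0. Among the called falls were EBNA1BP2 and POLR1E, by 0.41 and 0.39. Falls numbered 1 without sgRNA_96 replicate 3, 2 without SCR1 replicate 1, 3 without SCR1 replicate 4 and 16 without sgRNA_96 replicate 1. With the transcript length offset 2 falls remained in the ribosome biogenesis list. Of 36 tRNA synthetase and ATF4 target genes 8 fell (22.2%) and 0 rose, with a median of -0.14 and 30 differences below 0. Among the called falls were TRIB3, WARS1 and SLC3A2, by 0.40, 0.36 and 0.32. Falls in this list numbered 4 without SCR1 replicate 1, 5 without SCR1 replicate 4, 3 with the transcript length offset and 14 with the replicate block. Of 13 mitochondrially encoded mRNAs only MT-ND6 passed (7.69%), a rise by 0.44. In the MYC network 1 of 11 rose (9.09% called, against 12.5% of all tested genes). This was MLXIP, the glucose-responsive factor also called MondoA (log2 difference 0.47, SE 0.051, adjusted p = 5.8e-06).

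**Figure D4:**
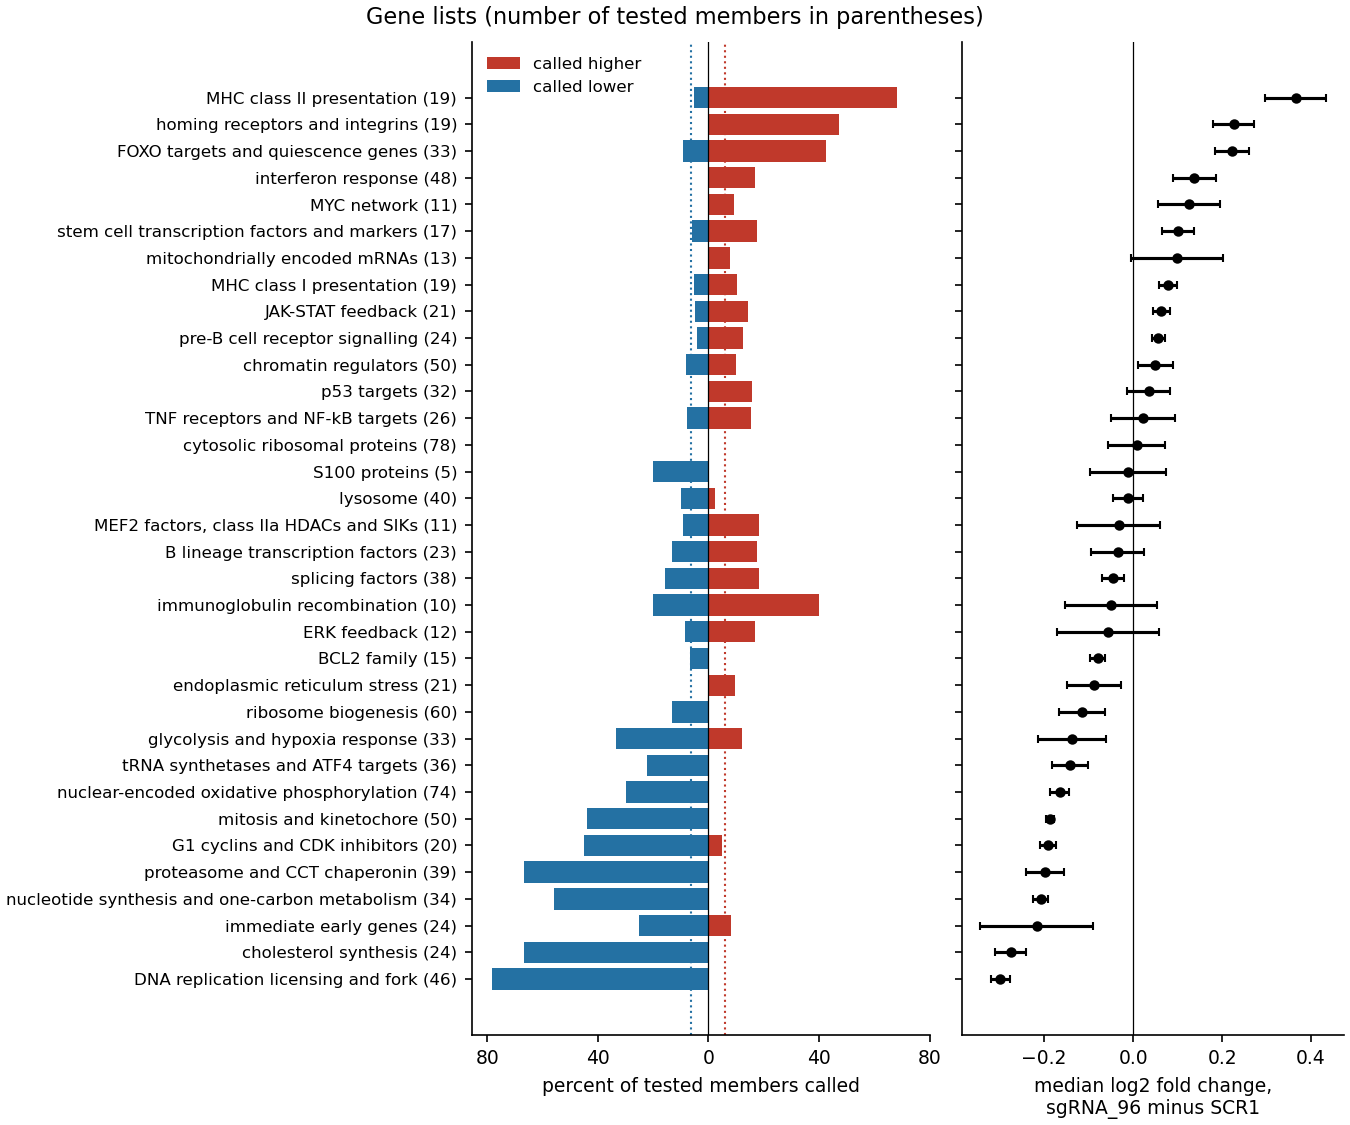
For 34 gene lists, the percent of tested members called higher (red, right) or lower (blue, left) with sgRNA_96, the dotted lines being the 6.18% and 6.29% of all tested genes, and beside it the median log2 fold change with the SD of that median over the 3 sgRNA_96 libraries. MHC class II (13 of 19 higher) is at the top and DNA replication (36 of 46 lower) at the bottom.

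FOXO target and quiescence genes rose more than they fell. Of 33 members 14 rose and 3 fell, with a median of 0.22. TXNIP, an arrestin-like brake on glucose uptake and a target of MLXIP, was at 106, 151 and 114 CPM in sgRNA_96 and at 54.8, 66.0 and 64.7 CPM in SCR1 (log2 difference 1.01, SE 0.16, adjusted p = 0.018). Its relative ARRDC4 was at 10.4, 12.6 and 9.35 CPM against 5.28, 7.15 and 6.80 CPM (log2 difference 0.76, SE 0.16, adjusted p = 0.0034). FOXO1, the FOXO factor of B cell precursors, rose from 149, 158 and 145 CPM to 199, 189 and 212 CPM (log2 difference 0.41, SE 0.057, adjusted p = 0.00010).

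The 3 falls in that list were TSC22D3, BCL6 and ZFP36L1, so its members did not all move one way. BCL6, the repressor of germinal center B cells, was at 27.3, 27.5 and 24.8 CPM in sgRNA_96 and at 41.5, 44.7 and 39.7 CPM in SCR1 (log2 difference -0.66, SE 0.082, adjusted p = 3e-05). The count of rises in the list was 6 without SCR1 replicate 1, 7 without sgRNA_96 replicate 3, 9 without SCR1 replicate 4 and 7 with the transcript length offset. Of 32 p53 targets 5 rose and 0 fell (15.6% called, against 12.5% of all tested genes): BTG2, ZMAT3, TP53INP1, SESN1 and TNFRSF10B. BTG2 and SESN1 are also in the quiescence list, and CDKN1A, the defining p53 target, differed by 0.0002.

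B lineage lists held calls in both directions. Of 12 B progenitor markers 3 rose and 0 fell (25%): MME, the surface antigen CD10, rose from 451, 480 and 475 CPM to 607, 656 and 689 CPM (log2 difference 0.47, SE 0.055, adjusted p = 1.3e-05), BLNK by 0.31 and DNTT by 0.22. PAX5, EBF1 and CD79A differed by -0.02, -0.09 and -0.01 and did not pass the test. Of 23 B lineage transcription factors 4 rose and 3 fell (30.4%), and the falls numbered 6 without sgRNA_96 replicate 1. IKZF3, the Aiolos factor of later B cells, rose from 5.55, 6.47 and 6.57 CPM to 10.3, 9.78 and 12.2 CPM (log2 difference 0.80, SE 0.15, adjusted p = 0.0011), and IKZF2, of the same family, fell from 60.9, 59.0 and 58.5 CPM to 40.2, 43.3 and 50.3 CPM.

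In immunoglobulin recombination 4 of 10 genes rose and 2 fell. RAG1, the recombinase, was at 442, 515 and 501 CPM in sgRNA_96 and at 255, 294 and 275 CPM in SCR1 (log2 difference 0.82, SE 0.064, adjusted p = 3.6e-07), and it was called in all 19 alternatives. RAG2, named after its value was seen, was at 101, 103 and 105 CPM against 88.2, 86.5 and 90.3 CPM (log2 difference 0.22, SE 0.056, adjusted p = 0.013). The end-joining gene LIG4 rose by 0.46 and XRCC4, the partner of its product, fell by 0.41, and both calls ended with the transcript length offset (adjusted p = 0.059 and 0.12). Of 24 genes of pre-B cell receptor signaling 3 rose, BLNK, CD72 and VPREB3, and VAV2 fell (16.7% called, against 12.5% of all tested genes). Without sgRNA_96 replicate 3, SCR1 replicate 1 or SCR1 replicate 4 that list had 1 rise and 0 falls, as it had with the transcript length offset, where CD72, VPREB3 and VAV2 lost their calls (adjusted p = 0.072, 0.13 and 0.13). The RAG2 call also ended with that offset (adjusted p = 0.20).

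Stem cell factors changed in both directions. Of 17 that could be tested 3 rose and 1 fell (23.5%, against 12.5% of all tested genes). Of the 32 listed, 10 were at 0 in all 6 libraries. LMO2, a bridging factor of hematopoietic stem cells, was at 154, 154 and 155 CPM against 109, 102 and 102 CPM (log2 difference 0.56, SE 0.054, adjusted p = 1.7e-06). The ETS factor ERG was at 355, 354 and 343 CPM against 288, 272 and 267 CPM (log2 difference 0.35, SE 0.051, adjusted p = 0.00017). BCL11A differed by 0.34, a call that the transcript length offset ended (adjusted p = 0.51). RUNX1, the core binding factor, was the fall, at 146, 127 and 154 CPM against 189, 177 and 179 CPM (log2 difference -0.36, SE 0.064, adjusted p = 0.0011).

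Signaling lists held changes in both directions. Of 24 immediate early genes 6 fell and 2 rose, with a median of -0.22: beside EGR1, JUN, a subunit of AP-1, fell from 6.50, 8.70 and 5.39 CPM to 3.41, 3.50 and 3.84 CPM (log2 difference -0.93, SE 0.20, adjusted p = 0.0039) and the phosphatase DUSP1 from 82.4, 90.2 and 79.9 CPM to 64.1, 57.6 and 56.8 CPM. CCN2, a secreted YAP target, rose by 0.60. Without SCR1 replicate 1 the list had 3 falls, and it also had 3 with the transcript length offset. In cytokine signaling 3 of 21 rose and 1 fell (19.0%, against 12.5% of all tested genes). SOCS2, a target and inhibitor of STAT5 signaling, was at 456, 454 and 483 CPM against 333, 323 and 354 CPM (log2 difference 0.46, SE 0.052, adjusted p = 1.1e-05), and CRLF2, the TSLP receptor, was at 4.86, 5.16 and 5.19 CPM against 2.37, 2.17 and 2.46 CPM. IL7R and CISH, a receptor and a further STAT5 target, did not pass the test. Of 26 TNF receptor and NF-kB genes 4 rose and 2 fell (23.1%). The rises included TNFRSF13C (the BAFF receptor, by 0.51) and TNFRSF14 (by 0.50). The falls were TNFRSF9 and the adhesion molecule ICAM1 (by 0.51). Leaving out single libraries gave 2 to 5 rises and 1 to 4 falls, with 2 and 1 without sgRNA_96 replicate 3 and 4 falls without sgRNA_96 replicate 1. With the transcript length offset there were 1 rise and 0 falls, and the calls of TNFRSF14, TNFRSF9 and ICAM1 ended (adjusted p = 0.061, 0.28 and 0.20).

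Of 19 homing receptors and integrins 9 rose and 0 fell (median 0.23). Besides P2RY14 these included the integrin subunit ITGAM, from 6.84, 7.44 and 6.14 CPM to 10.3, 11.9 and 11.1 CPM (log2 difference 0.71, SE 0.14, adjusted p = 0.0020). CXCR4, the receptor that holds B cell precursors in the marrow, differed by 0.09 and did not pass the test. With the transcript length offset 2 rose, the ITGAM call ended (adjusted p = 0.16) and ITGA6 turned from a rise of 0.46 to -0.04. Leaving out single libraries gave 4 to 7 rises, with 4 without sgRNA_96 replicate 3 or SCR1 replicate 1, and 5 without sgRNA_96 replicate 4 or SCR1 replicate 4.

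The remaining lists held changes in both directions or few calls. Chromatin regulators had 5 rises and 4 falls in 50 (18.0%), with KDM5B and PHC3 each higher by 0.34, KMT2D higher by 0.24 and DNMT3B lower by 0.34. Splicing factors had 7 rises and 6 falls in 38 (34.2%), with LUC7L3, PNISR and CLK1 higher by 0.24 to 0.30 and HNRNPM lower by 0.25. The splicing list had 2 rises and 1 fall without sgRNA_96 replicate 3, 4 and 1 without SCR1 replicate 1 or SCR1 replicate 4, and 3 and 0 with the transcript length offset, where the CLK1 and HNRNPM calls ended (adjusted p = 0.14 and 0.23). The PHC3, KMT2D and DNMT3B calls ended there too (adjusted p = 0.57, 0.14 and 0.11), and the chromatin list had 1 rise and 1 fall. Lysosome genes had 1 rise and 4 falls in 40 (12.5%, the same share as all tested genes). Endoplasmic reticulum stress genes had 2 rises in 21 (9.52%), XBP1 and EDEM1, and the BCL2 family 1 fall in 15 (6.67%), BCL2L11. ERK feedback had 2 rises and 1 fall in 12 (25%), and S100 proteins 1 fall, S100A8, in 5 (20.0%). With the offset the lysosome, ERK feedback and BCL2 lists had 0 calls, and without sgRNA_96 replicate 3 the lysosome list had 0 falls and the ERK feedback list 0 calls.

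**Figure D5:**
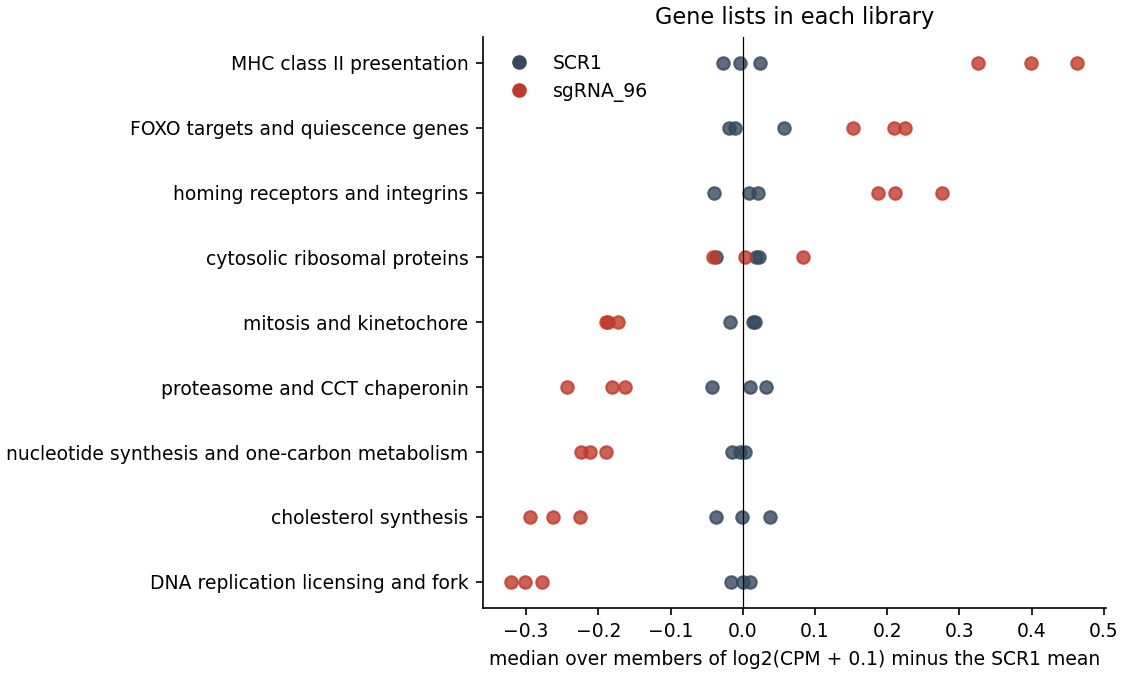
Each point is 1 library, dark for SCR1 and red for sgRNA_96, and gives the median over a list's members of log2(CPM + 0.1) minus the mean of the SCR1 libraries. The sgRNA_96 libraries lie at 0.326 to 0.463 for MHC class II and at -0.320 to -0.278 for DNA replication, and for cytosolic ribosomal proteins the groups overlap.

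Promoters were examined for motifs because MEF2C and HLF are DNA-binding factors and several lists held changes in 1 direction. RefSeq promoters run from 250 bases before to 50 after a start on GRCh38.p14, and 10021 tested genes had 14442 of them. The MEF2 site, on either strand, was found in 2.59% of the promoters of called rises, 1.14% of those of called falls and 1.47% of all. The PAR bZIP words TTACATAA, TTACGTAA, TTATATAA and TTATGTAA were in 12 of 1043 promoters of rises, 8 of 1057 of falls and 119 of all. The E2F words TTTCCCGC, TTTCGCGC, TTTGCCGC and TTTGGCGC were in 2.97% of rises, 9.84% of falls and 5.13% of all, and in 43.1% of the replication list. CCAAT was in 33.0% of rises, 42.6% of falls and 35.3% of all, with 60.0% in MHC class II, 58.8% in replication, 70.6% in mitosis and 78.3% in cholesterol synthesis. For E2F the other lists examined had 0.0% (MHC class II), 5.88% (mitosis), 4.35% (cholesterol synthesis), 3.51% (FOXO and quiescence) and 11.4% (nucleotide synthesis). For CCAAT the FOXO and quiescence list had 42.1% and the nucleotide synthesis list 43.2%. The MEF2 site was in 2 of 51 mitosis promoters (3.92%), 1 of 57 of the FOXO and quiescence list (1.75%) and 0 of the other lists examined. PAR bZIP words were in 2 of 44 nucleotide synthesis promoters (4.55%), 1 of 51 mitosis promoters (1.96%) and 0 of the other lists examined. The plan named only the MEF2 and PAR bZIP sites. All these shares describe letters in short windows and were not tested.

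Shown next are 4 promoters picked as examples, with the motif in capitals. The promoter of an internal MEF2C start was picked for its MEF2 site, as were those of JUN and HDAC9, which fell. CDC6 had the largest fall of the replication list. MEF2 sites were in promoters of 23 genes called higher and 12 called lower. JUN and HDAC9 therefore do not represent the direction of those genes. All 4 promoters are written on the strand of the gene. The promoter of MEF2C, 1 of its 7, is chr5:88824295-88824594 (minus), that of JUN chr1:58783998-58784297 (minus) and that of HDAC9 chr7:18086575-18086874 (plus, 1 of 5 promoters of that gene). The promoter of CDC6, shown for its E2F word, is chr17:40287629-40287928 (plus).
MEF2C: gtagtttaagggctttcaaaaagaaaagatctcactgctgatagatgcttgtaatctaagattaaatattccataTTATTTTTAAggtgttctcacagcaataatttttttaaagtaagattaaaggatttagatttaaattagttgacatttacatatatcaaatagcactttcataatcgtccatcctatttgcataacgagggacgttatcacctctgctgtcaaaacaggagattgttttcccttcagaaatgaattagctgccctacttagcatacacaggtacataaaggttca
JUN: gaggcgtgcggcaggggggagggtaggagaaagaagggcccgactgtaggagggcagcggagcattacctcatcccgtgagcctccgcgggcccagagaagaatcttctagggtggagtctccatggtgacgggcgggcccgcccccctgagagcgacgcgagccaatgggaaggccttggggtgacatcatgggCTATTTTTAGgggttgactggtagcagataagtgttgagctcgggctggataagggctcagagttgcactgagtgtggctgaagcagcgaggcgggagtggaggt
HDAC9: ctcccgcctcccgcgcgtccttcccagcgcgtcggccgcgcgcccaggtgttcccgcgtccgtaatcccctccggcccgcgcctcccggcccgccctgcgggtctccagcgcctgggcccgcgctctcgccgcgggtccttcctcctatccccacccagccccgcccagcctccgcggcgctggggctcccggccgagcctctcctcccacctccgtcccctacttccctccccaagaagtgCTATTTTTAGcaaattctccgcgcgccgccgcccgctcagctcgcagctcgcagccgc
CDC6: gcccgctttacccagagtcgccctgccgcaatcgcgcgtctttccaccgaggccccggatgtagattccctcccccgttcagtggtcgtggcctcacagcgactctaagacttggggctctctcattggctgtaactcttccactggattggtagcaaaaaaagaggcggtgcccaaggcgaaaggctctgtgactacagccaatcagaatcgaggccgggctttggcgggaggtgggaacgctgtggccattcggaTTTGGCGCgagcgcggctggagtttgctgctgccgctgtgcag

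The guides were set against each other directly, because comparing each with the same 3 SCR1 libraries would share their error. Between sgRNA_97 and sgRNA_96, 3 of 14436 genes (0.0208%) passed edgeR's test, all higher with sgRNA_97, and DESeq2 called 8, with 459 at an unadjusted p under 0.05. Of the 1766 genes called for sgRNA_96, 1 also differed between the guides, GVINP1. At an unadjusted p under 0.05, 72 of the 1766 (4.08%) differed, and the median size of the difference between guides over them was 0.0508 on the log2 scale. Differences of each guide from SCR1 share the SCR1 libraries, so part of their closeness is built in. Side by side, the log2 differences from SCR1 for sgRNA_96 and sgRNA_97 were 2.91 and 3.07 for P2RY14, 0.82 and 0.91 for RAG1, 0.47 and 0.59 for HLA-DRA, -0.51 and -0.48 for CDC6, and -1.31 and -1.50 for EGR1. AXIN2 had 1.37 and 1.04, and the difference between guides for each of these 6 genes had an adjusted p of 1, which does not show that the guides act alike.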

How the data were processed

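RNA was sequenced from poly(A)-selected TruSeq libraries. The authors deposited estimated counts per transcript from Salmon 1.10.1, together with TPM values, abundances scaled for transcript length and library size. STAR and GRCh38 are also named in the submitters' processing notes, and the strand setting was not given in the sources used here. All 252835 transcripts matched GENCODE release 44 and were summed to 62700 genes. Of the estimated counts above 0, 87.8% were not whole, so sums were rounded. Salmon divides reads among overlapping or near-identical models, which makes values of such genes uncertain.

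Genes passing filterByExpr (minimum count 10) were scaled by TMM and tested with edgeR 4.0.16 (quasi-likelihood, R 4.3.3) on the 6 libraries, with no covariate, Benjamini-Hochberg adjustment and a threshold of 0.05. All adjusted p-values in the text come from this test unless another is named. Tests for more than 1.2-fold and 1.5-fold used edgeR's glmTreat. Alternatives used DESeq2 1.42.0, limma 3.58.1 on log2 TPM, other scalings, filters and a transcript length offset. The code was tested on simulated data. Nothing in the labels says that replicates were separate cultures, so p-values measure the spread between these samples.

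The gene lists and the members described were chosen with earlier results of these data known. Genes were named by rule: MEF2C, the 10 largest rises and falls in log2 fold change among called protein-coding genes at a mean of at least 1 CPM with no overlap of the groups, the 5 largest rises and falls in TPM, up to 4 called members of each list by size, and MEF2A, MEF2B, MEF2D, HLF, TCF3, BCL6, MYC and BCL2. Genes beyond it were chosen after their values were seen: HLA-DPA1, HLA-DRB1, HLA-DRB5, CIITA, IFI30, RFX5, RFXAP, RFXANK, RAG2, MME, PAX5, EBF1, CD79A, CXCR4, IL7R, CISH, CDKN1A, TNFRSF10B, ZFP36L1, MPO, CD33 and the families and genes under other observations. XIST, TSIX and genes of chromosome Y were left out. In the lists 2 symbols had no match. Values of some list members are not reported here.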

Additional observations from a re-analysis of the deposited data

Results flagged for a closer look

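Between the guides, 3 genes differed in edgeR's quasi-likelihood test, and a fold below is a lower bound taken against 3 counts per sgRNA_96 library (a mean of 0.1659 CPM), since sgRNA_96 was at 0 in all 3 libraries. GVINP1, a pseudogene at chr11:6714610-6721880, was at 3.706, 3.316 and 2.732 CPM with sgRNA_97, at least 19.59-fold higher (adjusted p = 0.0001546), and at 2.478, 3.82 and 1.134 CPM in SCR1. ENSG00000285816, at chr11:65261928-65326543, was at 2.383, 1.474 and 1.188 CPM with sgRNA_97, at least 10.13-fold higher (adjusted p = 0.001177), and at 0 in SCR1. ENSG00000285920, at chr15:41284007-41380996, was at 2.78, 1.842 and 2.732 CPM with sgRNA_97, at least 14.77-fold higher (adjusted p = 0.001177), and at 0.2037, 0 and 0 CPM in SCR1. All 3 models overlap others on the same strand, with 1 other for GVINP1, 2 for ENSG00000285816 and 3 for ENSG00000285920, so their reads could belong to neighbours.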

How the results depend on the processing

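The count of genes called for sgRNA_96 was 576 with the transcript length offset (367 higher, 209 lower), 354 on log2(TPM + 1) (227 higher, 127 lower), 371 on log2(TPM + 0.1) (233 higher, 138 lower) and 32 on log2(TPM + 1) without a filter (28 higher, 4 lower), and 745 to 2527 with single libraries left out. The count past 1.2-fold was 100 with the length offset and 111 to 287 with single libraries left out. MEF2C passed the threshold with a length trend offset (-0.159), the replicate block (-0.14) and DESeq2 (-0.138), and lay between -0.161 and -0.129 with single libraries left out. Between the guides the count was 28 without a filter, 1 with the length offset, 8 by DESeq2 and 3 to 4 with single libraries left out. The cause of these differences was not tested. ITGA6 turned to -0.03689 with the length offset, to -0.01593 on log2(TPM + 1) with and without a filter and to -0.013414 on log2(TPM + 0.1). MEF2D, which was not called, turned to -0.0091656 with the length offset, -0.0013692 with the length trend, -0.0057072 on log2(TPM + 1) with and without a filter and -0.00583 on log2(TPM + 0.1), and ranged from -0.014256 to 0.076775 with single libraries left out. MEF2B, also not called, ranged from -0.87477 to 0.13978. Of 162 named genes, the call was lost by 59 with the length offset, 89 on log2(TPM + 1), 85 on log2(TPM + 0.1) and 146 on log2(TPM + 1) without a filter, and no list with a median of at least 0.1 in size changed sign under any alternative run. No pairing by the shared replicate numbers was detected (correlations of deviations -0.0206, -0.0629 and 0.00308 for equal numbers). With 3 samples per group these values cannot show that the samples were unpaired. No sample correlated best with the sample of its own number in the other group. The fit with the replicate block called 2096 genes, against 1766 without it. Precision at low counts was limited by 15924380 to 29777361 counts per library.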

Other observations

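Some gene families outside the lists, picked after their values were seen, also held changes in 1 direction. Among all tested genes 6.18% rose and 6.29% fell. For these families, results with the transcript length offset are given for the GIMAP genes only. Of 12 alpha- and beta-tubulins, the subunits of microtubules, 9 fell and 0 rose (median -0.33 on the log2 scale), with TUBB2A lower by 1.12 and TUBB3 by 0.87. Of 5 GIMAP genes, immune GTPases that neighbour each other on chromosome 7, 5 rose: GIMAP1 by 1.24, GIMAP2 by 0.37, GIMAP4 by 1.06, GIMAP6 by 0.48 and GIMAP8 by 1.72. With the transcript length offset GIMAP4 kept its call and the other 4 did not (adjusted p = 0.16 for GIMAP1, 0.063 for GIMAP2, 0.086 for GIMAP6 and 0.063 for GIMAP8). The metallothionein MT1X, a metal-binding protein, was at 24.7, 23.8 and 23.7 CPM in sgRNA_96 and at 47.6, 41.4 and 45.4 CPM in SCR1 (log2 difference -0.90), and MT2A fell by 0.78. Of 27 replication-dependent histone genes 8 rose and 0 fell (median 0.57), H2BC21 by 0.82, and since most of their mRNA is not polyadenylated these poly(A) libraries hold only part of it.

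Further single genes, also picked after their values were seen, had large rises. FLT4, the VEGF-C receptor, was at 67.6, 67.2 and 61.9 CPM in sgRNA_96 and at 31.9, 30.6 and 29.9 CPM in SCR1 (log2 difference 1.09, edgeR adjusted p = 1.66e-08). F3, tissue factor, was at 26.6, 23.3 and 27.9 CPM against 12.2, 10.4 and 10.9 CPM (log2 difference 1.21, edgeR adjusted p = 7.48e-07), and EGFL7, a secreted vascular protein, rose by 0.82. Of 10 stromal and endothelial markers 7 were at 0 in all 6 libraries, and the list summed to 5.33 to 6.43 TPM in sgRNA_96 and 5.17 to 6.82 TPM in SCR1.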
